A study of Homo sapiens with 24 samples.

Results

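Transcripts of the aminoacyl-tRNA synthetases were followed through 38 genes in MCF10A cells, an established line of human breast epithelial cells that does not form tumours. The members are 20 synthetase genes listed as cytosolic, 16 listed as mitochondrial, and the 2 scaffold genes AIMP1 and AIMP2. They were taken by symbol from a table of 59251 genes. All 38 were found, and all 38 passed the filter on low counts, which kept 20820 genes in all; the lowest count of a member in any library was 30. Poly(A) RNA was sequenced from 24 libraries, 4 in each of 6 groups. In PM, which the labels call MYC-transformed, the groups carried CHD1 hairpin B, CHD1 hairpin A or a hairpin against GFP, and in PE, which they call non-transformed, the same 3 hairpins. Every culture, with the GFP hairpin too, was kept for 72 h in 50 ng/ml doxycycline. The series asks about the role of CHD1, an ATPase that remodels chromatin, in MYC-driven breast cancer. The labels do not say how PM was transformed or whether either line is a clone, so MYC and any other difference between the lines cannot be told apart. They call the libraries biological replicates and do not say how the cultures were kept apart, so a p-value here reflects the spread among these libraries, which may be technical.

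Aminoacyl-tRNA synthetases join each amino acid to its tRNA, the step that fixes which amino acid a codon yields. Cytosolic enzymes serve translation of nuclear messages, and a separate set of nuclear-encoded enzymes is imported into mitochondria to serve translation of the mitochondrial genome. GARS1 and KARS1 encode the enzymes of both compartments from the same gene. Several cytosolic enzymes are held in a multi-synthetase complex by scaffold proteins that include AIMP1 and AIMP2. The transcription factor ATF4, made when amino acids run short, is known to drive many cytosolic synthetase genes, and MYC, which binds E-boxes, is known for raising genes of protein synthesis.

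Promoter sequence was available for 32 of the 38 members in the RefSeq table of GRCh38.p14, from 250 bases before to 50 bases after an annotated transcript start. Where the table lists several starts for a gene, the first listed was used, for members and for all other genes alike. For CARS2, EARS2, FARS2 and TARS1 that start lies downstream of the first base of the annotated gene. The core of the amino acid response element, searched as TGATGNAA on both strands, was found in 7 of the 32 windows (21.9%) and in 3.67% of 27305 promoters. Among members described as ATF4 targets it was found in 6 of the 10 with a window. The E-box CACGTG, which reads the same on both strands and shares no bases with the first motif in these windows, was found in 4 of the 32 windows (12.5%), those of CARS2, EARS2, IARS1 and MARS2, and in 7.43% of all promoters. The 7 stretches around the response element core are shown because AARS1 and the other genes that hold it moved in different directions below. Capitals mark the core, and each stretch is written 5′ to 3′ on the strand of its gene, so that capitals beginning TTG show the core lying on the opposite strand. On the minus strand lie AARS1 (chr16:70289680-70289723), CARS1 (chr11:3057412-3057455), IARS1 (chr9:92293697-92293740), NARS1 (chr18:57621809-57621852) and YARS2 (chr12:32756081-32756124). On the plus strand lie MARS1 (chr12:57488034-57488077) and TARS1 (chr5:33440937-33440980). A match describes the letters and is not evidence of binding.
AARS1: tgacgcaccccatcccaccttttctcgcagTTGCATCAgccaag
CARS1: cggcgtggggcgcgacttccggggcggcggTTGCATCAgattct
IARS1: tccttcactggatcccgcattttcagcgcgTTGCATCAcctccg
MARS1: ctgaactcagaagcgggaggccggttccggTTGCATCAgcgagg
NARS1: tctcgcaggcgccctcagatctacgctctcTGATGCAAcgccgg
TARS1: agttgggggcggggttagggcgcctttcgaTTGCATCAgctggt
YARS2: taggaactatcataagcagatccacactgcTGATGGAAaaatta

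The shallowest library, replicate 1 of the GFP hairpin in PE, held 4142862 counts and the deepest 93299393. Replicate 3 of hairpin B in PM, with a count for 33137 genes, and replicate 4 of hairpin A in PM, with 19514, also stood apart, and the fits were repeated without these 3 libraries. CHD1 fell under each hairpin, by 1.61 and 1.54 on the log2 scale in PM (hairpins B and A) and by 1.48 and 1.42 in PE. MYC averaged 518 ± 27.4 CPM (counts scaled to a common depth with TMM factors) in PM and 275 ± 17.7 CPM in PE with the GFP hairpin (SD, n = 4 each). The 10 epithelial marker genes summed to 2321 to 2588 CPM with hairpin B, 1929 to 2144 CPM with hairpin A and 2994 to 3369 CPM with the GFP hairpin in PM. In PE the sums were 2048 to 2552, 2467 to 3221 and 3672 to 5110 CPM for the same hairpins. KRT5 averaged at least 829 CPM in every group, while CDH1 averaged at most 9.22 CPM in PE and the basal factor TP63 never exceeded 1.35 CPM. The sum over 7 fibroblast markers stayed at or below 66.4 CPM and over 4 endothelial markers at or below 13.3 CPM. Over 6 immune markers it stayed at or below 85.5 CPM. PTPRC and CD3E were at or below 1.11 CPM, while CD68 and CD14 reached 65.4 and 34.2 CPM in their highest libraries. The share of counts on mitochondrial ribosomal RNA was 0.374% to 0.586% with a CHD1 hairpin and 0.216% to 0.439% with the GFP hairpin. The part of the epithelial sum and of this share in the results on hairpins was not tested.

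Per kilobase of exon, cytosolic synthetase transcripts were the more abundant class. With the GFP hairpin, the median level of the 20 cytosolic genes was 49.0 CPM per kb in PM and 41.4 CPM per kb in PE, and that of the 16 mitochondrial genes was 11.6 CPM per kb in PM and 9.26 CPM per kb in PE. Among the 13 amino acids with a separate gene for each compartment, the cytosolic gene had the higher level in 12 pairs in PM and in 11 pairs in PE. The exceptions in PE were IARS2 and HARS2, and HARS1 and HARS2 differed by less than the spread between libraries in either line. These levels divide by the union of all annotated exons, 7853 bases for HARS1 and 3736 for HARS2. Before that division HARS1 had 159 ± 12.9 CPM in PM and 135 ± 22.8 CPM in PE. HARS2 had 74.7 ± 1.35 and 66.0 ± 6.93 CPM. The order within pairs and the ranks per kilobase thus depend on annotated lengths, which may exceed those of the transcripts present. IARS2, the mitochondrial isoleucyl enzyme, reached 106 ± 3.61 CPM per kb in PM and 101 ± 2.36 CPM per kb in PE, against 60.1 ± 4.28 and 53.1 ± 2.13 CPM per kb for its cytosolic counterpart IARS1 in PM and PE. VARS1, the cytosolic valyl enzyme, had the highest level in PE, 190.0 ± 11.1 CPM per kb. TARS3, another threonyl enzyme of the cytosol, had the lowest in either line, 2.82 ± 0.28 CPM per kb in PM and 1.79 ± 0.28 CPM per kb in PE.

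**Figure D1:**
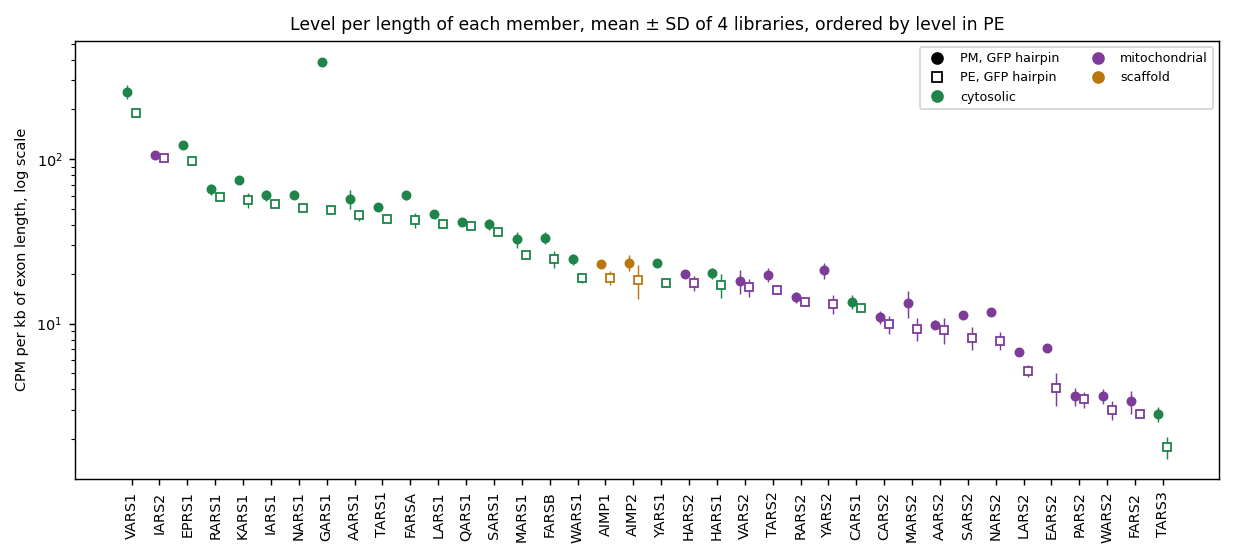
Level of each of the 38 members per kilobase of exon (vertical axis, CPM per kb, log scale) with the GFP hairpin in PM (filled circles) and PE (open squares), as the mean and SD of 4 libraries, ordered by the level in PE and coloured by class. GARS1 stands highest in PM at 387 CPM per kb, against 48.8 CPM per kb in PE.

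In PM against PE with the GFP hairpin, all 38 members had a positive log2 change, and 25 passed the test (adjusted p under 0.05 by edgeR's quasi-likelihood test), each as higher in PM. That is 65.8% of the members, where 14.1% of all genes tested were called higher and 11.4% lower. The median change was 0.31 for the members and 0.02 for all genes tested. Of the cytosolic genes 16 of 20 rose, of the mitochondrial genes 8 of 16, and of the scaffold genes AIMP1 alone passed, by 0.27, a call that was lost without replicate 2 of the GFP hairpin in PM. The calls of IARS1, RARS1 and WARS2 were lost in 7, 19 and 11 of the 24 fits that left out 1 library, each with its smallest value without replicate 2 of the GFP hairpin in PM (0.11, 0.082 and 0.25), and DESeq2 called 23 members. SARS2, the mitochondrial seryl enzyme, shares 46.2% of its exon length with another gene on the same strand, so its rise of 0.42 is uncertain. In bulk RNA, fewer cells of a type and less RNA per cell cannot be told apart.

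GARS1 was the member that differed most between the lines. It encodes glycyl-tRNA synthetase (chr7:30594735-30634033, GRCh38.p14, plus strand). Its level was 1615, 1558, 1621 and 1639 CPM in the PM libraries and 209, 201, 201 and 199 CPM in the PE libraries with the GFP hairpin. All 4 PM libraries lay far above all 4 PE libraries, and libraries within each group were close to one another. The log2 change was 2.99 (SE 0.067, adjusted p = 1.28e-27), a 7.95-fold difference. Among the 2115 tested genes whose mean in PM reached 100 CPM, this was the largest log2 change, rank 1, and among all 20820 genes it ranked 245. Per kilobase GARS1 ranked 1 of 38 members in PM and 8 of 38 in PE.

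Of 12 tested neighbours of GARS1, 6 on each side, 1 was called higher and 1 lower, where 14.1% and 11.4% of all genes tested were. LINC01176, LOC100287825, OSBPL9P6, AQP1, ADCYAP1R1 and PDE1C averaged at most 0.925 CPM in either line. Their SEs were 0.580 to 1.47, so only large changes there could be called. CRHR2, a receptor for corticotropin-releasing hormone whose gene lies 17.9 kb away, was called higher (adjusted p = 6.37e-05), at 0.752 ± 0.345 CPM in PM and 0.00493 ± 0.00986 CPM in PE, so its level was very low in either line. NOD1, an intracellular sensor of bacterial peptidoglycan, was lower, at 8.33 ± 0.36 CPM in PM and 11.9 ± 1.49 CPM in PE. GGCT, gamma-glutamylcyclotransferase, gave 73.8 ± 4.88 CPM in PM and 63.4 ± 3.30 CPM in PE (log2 change 0.22, adjusted p = 0.060). The divergent transcript GARS1-DT, which overlaps 2.38% of the GARS1 exon length on the other strand, gave a log2 change of −0.32 (adjusted p = 0.177).

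**Figure D2:**
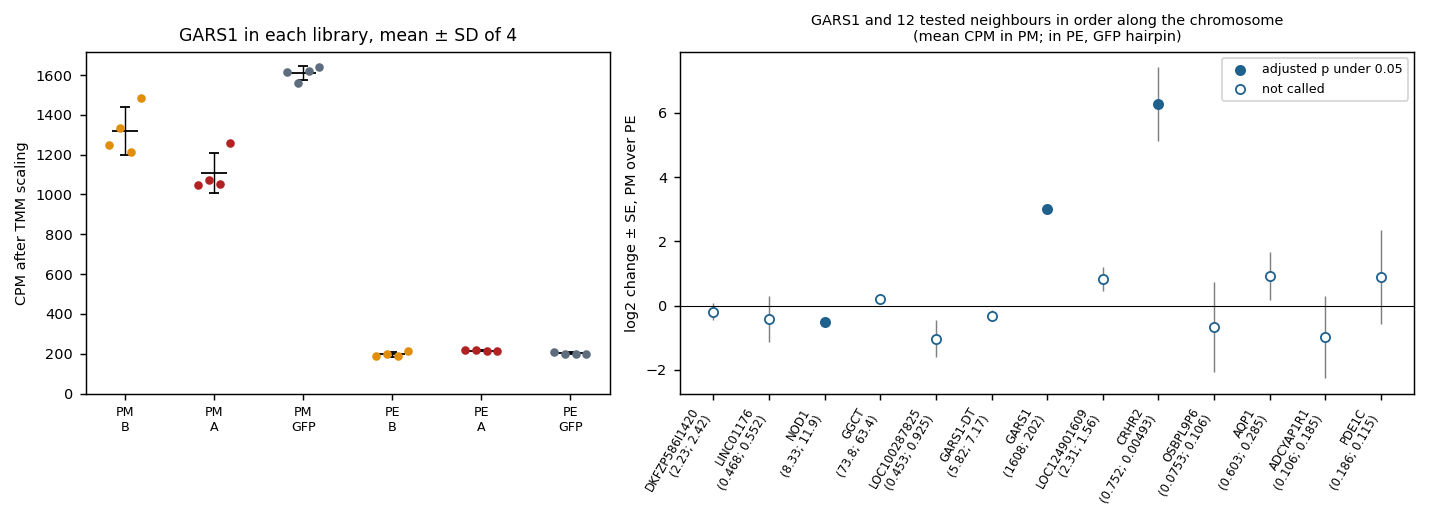
Left, GARS1 in each library (CPM after TMM scaling) by line and hairpin, with the mean and SD of 4 libraries; PM libraries lie at 1048 CPM or above and PE libraries at 220.4 CPM or below. Right, log2 change of PM over PE with the GFP hairpin (± SE) for GARS1 and 12 tested neighbours in chromosome order, with mean CPM in PM and then PE under each name; the fitted change of CRHR2 rests on a level near 0 in PE.

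The next largest rises in PM belonged to EARS2, YARS2 and TARS3. EARS2, the mitochondrial glutamyl enzyme, had 40.1, 40.6, 40.2 and 41.7 CPM in PM and 15.8, 23.7, 26.4 and 27.4 CPM in PE. The groups did not overlap, and the PE libraries were the more scattered, with replicate 1 lowest (log2 change 0.75, SE 0.11, adjusted p = 1.23e-06). YARS2, the mitochondrial tyrosyl enzyme, had 43.5, 53.1, 43.1 and 41.5 CPM in PM and 22.9, 29.9, 30.8 and 29.6 CPM in PE. Here too all PM libraries were above all PE libraries (log2 change 0.65, SE 0.095, adjusted p = 2.08e-06). TARS3 had 12.2, 14.6, 13.3 and 11.6 CPM in PM and 6.67, 9.08, 7.63 and 9.37 CPM in PE. Its groups were also apart (log2 change 0.63, SE 0.13, adjusted p = 0.000238). Changes of the other called members lay between 0.16 for RARS1 and 0.61 for NARS2, the mitochondrial asparaginyl enzyme. Of the 13 compartment pairs, 6 had both genes called higher, those of the leucyl, methionyl, asparaginyl, threonyl, tryptophanyl and tyrosyl enzymes.

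In PM, the CHD1 hairpins changed the synthetases unequally. With hairpin A, 18 members rose and 3 fell against the GFP hairpin, 47.4% and 7.89% of the members, where 13.4% and 14.3% of all genes tested were called higher and lower. With hairpin B, 8 rose and 5 fell, 21.1% and 13.2%, where 13.6% and 14.4% of all genes were called; with library sizes alone as the scaling, these counts were 12 and 4, and the falls were 3 without replicate 3 of hairpin B or replicate 1 or 2 of the GFP hairpin. The median change of the members was 0.03 with hairpin B and 0.22 with hairpin A, against 0.01 and −0.01 for all genes tested. Of the 20 cytosolic genes, 3 rose and 2 fell with hairpin B, and 13 rose and 2 fell with hairpin A. Of the 16 mitochondrial genes, 5 rose and 3 fell with hairpin B, and 5 rose and 1 fell with hairpin A. Hairpins A and B were each set against the same 4 GFP libraries of their line, so these comparisons share their controls.

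In PE, fewer members were called. With hairpin A, 10 rose and 1 fell, 26.3% and 2.63% of the members, where 10.9% and 9.33% of all genes tested were called higher and lower. With hairpin B, 4 rose and 3 fell, 10.5% and 7.89% of the members, which is below the 13.6% and 13.2% of all genes, and the 3 falls became 1 without replicate 4 of the GFP hairpin. Of the cytosolic genes, 1 rose and 2 fell with hairpin B, and 7 rose and 1 fell with hairpin A. Of the mitochondrial genes, 3 rose and 1 fell with hairpin B, and 3 rose with hairpin A. Across the 4 comparisons of a CHD1 hairpin with GFP, 5 members were called in every one and 12 in none. The matching counts over all genes were not taken, and the hairpins share GFP libraries within a line. These counts therefore show nothing particular to the members.

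**Figure D3:**
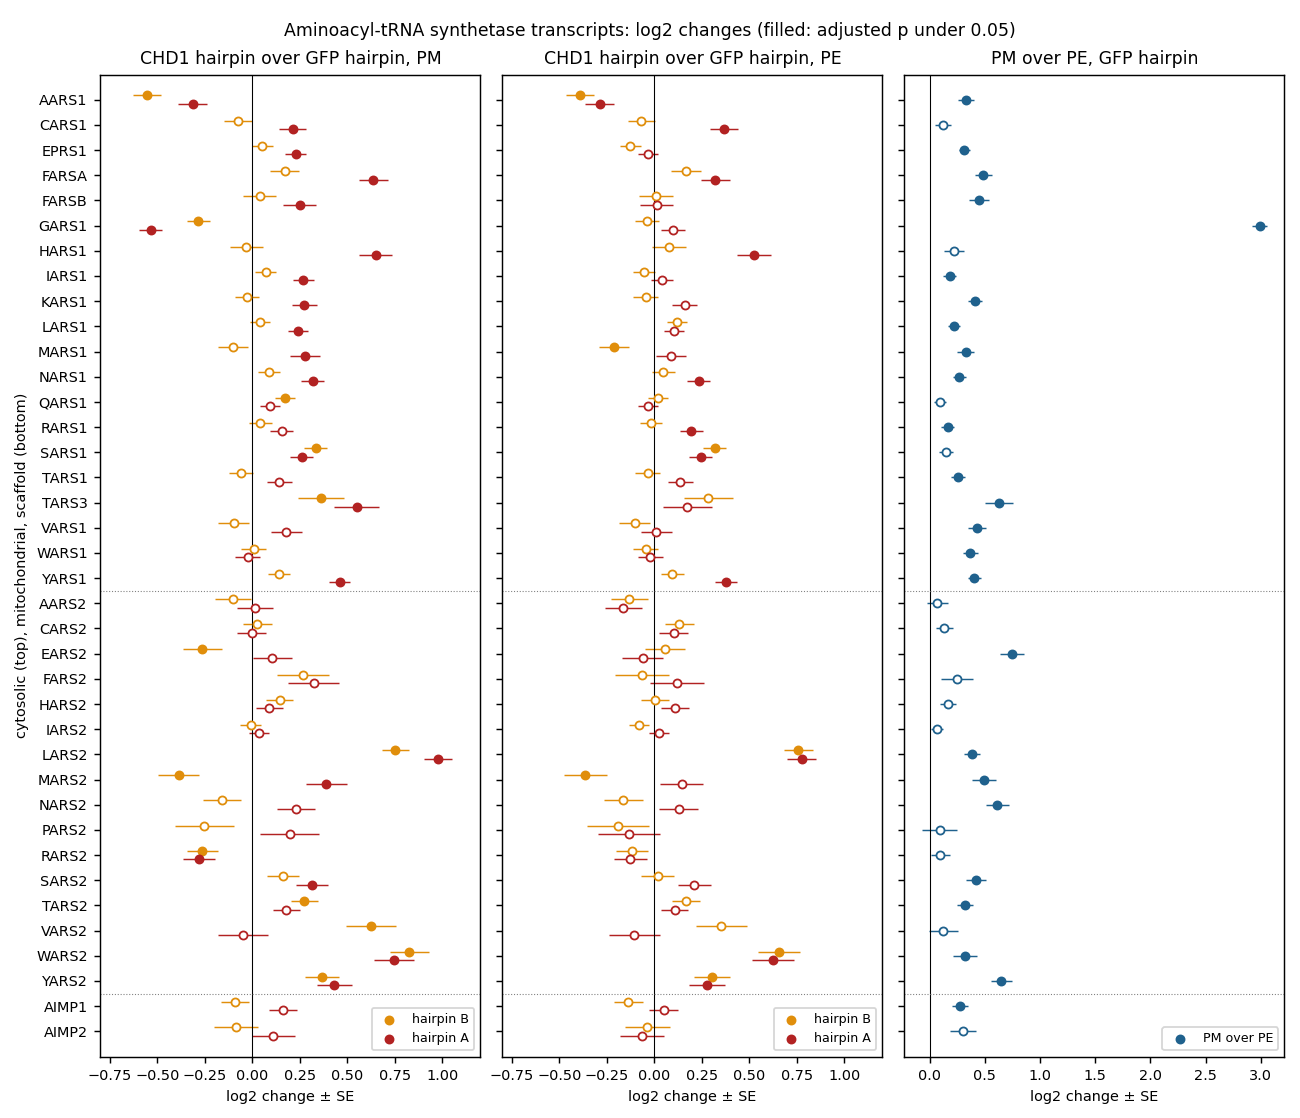
Log2 change and SE of each member for hairpin B (orange) and hairpin A (red) over the GFP hairpin in PM (left) and PE (middle), and for PM over PE with the GFP hairpin (right); filled points have an adjusted p under 0.05. AARS1 lies left of 0 and LARS2, WARS2, YARS2 and SARS1 lie right of 0 under both hairpins in both lines, and GARS1 lies at 2.99 in the right panel.

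LARS2 rose the most among members called in all 4 hairpin comparisons, except in PM with hairpin B, where WARS2 rose more. LARS2 encodes mitochondrial leucyl-tRNA synthetase (chr3:45388576-45549407, plus strand). In PM its level was 75.6, 78.2, 73.2 and 81.1 CPM with hairpin B, 92.3, 96.4, 86.8 and 84.5 CPM with hairpin A and 45.5, 48.1, 44.4 and 45.0 CPM with the GFP hairpin. In PE it was 63.6, 58.3, 52.3 and 63.1 CPM with hairpin B, 60.1, 63.5, 58.4 and 58.2 CPM with hairpin A and 36.9, 32.0, 33.4 and 38.5 CPM with the GFP hairpin. Every library with a CHD1 hairpin was above every GFP library of its line. The log2 changes in PM were 0.75 (SE 0.072, adjusted p = 4.36e-10) with hairpin B and 0.98 (SE 0.072, adjusted p = 1.26e-12) with hairpin A. In PE they were 0.76 (SE 0.075, adjusted p = 7.98e-10) and 0.77 (SE 0.075, adjusted p = 1.25e-09). The cytosolic leucyl gene LARS1 gave 0.04 with hairpin B and 0.24 with hairpin A in PM, of which the value with hairpin A passed the threshold. In PE it gave 0.12 and 0.10, which were not called.

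WARS2 and YARS2, mitochondrial enzymes for tryptophan and tyrosine, also rose in all 4 comparisons. WARS2 had 25.5, 24.6, 23.2 and 25.8 CPM with hairpin B, 22.3, 25, 22.4 and 24.1 CPM with hairpin A and 12.4, 15.3, 15.1 and 13.1 CPM with the GFP hairpin in PM. In PE the libraries had 20.0, 16.7, 15.1 and 18.6 CPM with hairpin B, 18.9, 16.3, 17.6 and 16.2 CPM with hairpin A and 13.6, 11.7, 10.5 and 10.3 CPM with the GFP hairpin. The CHD1 hairpin and GFP libraries did not overlap in either line, although WARS2 was among the least abundant members per length. Its log2 changes were 0.83 (SE 0.10, adjusted p = 1.3e-07) and 0.74 (SE 0.10, adjusted p = 8.62e-07) with hairpins B and A in PM. In PE they were 0.65 (SE 0.11, adjusted p = 1.87e-05) and 0.63 (SE 0.11, adjusted p = 5.87e-05). WARS2-AS1, which overlaps 4.68% of the WARS2 exon length on the other strand, was not called in these comparisons, and the cytosolic gene WARS1 was not called either, with changes between −0.05 and 0.01.

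YARS2 (chr12:32746544-32755897, minus strand) had 57.4, 61.6, 57.8 and 57.0 CPM with hairpin B and 65.3, 66.6, 61.7 and 50.8 CPM with hairpin A in PM, against the GFP libraries given above. In PE it had 37.2, 38.2, 36.9 and 30.5 CPM with hairpin B and 35.3, 36.1, 36.2 and 32.4 CPM with hairpin A. Replicate 4 was low within hairpin A in PM and within hairpin B in PE, where it overlapped the GFP libraries, and the other 2 comparisons had no overlap. The log2 changes were 0.37 (SE 0.091, adjusted p = 0.00208) and 0.43 (SE 0.091, adjusted p = 0.000366) with hairpins B and A in PM. In PE they were 0.30 (SE 0.095, adjusted p = 0.0154) and 0.28 (SE 0.095, adjusted p = 0.0364). The call with hairpin B in PE was lost without replicate 2 of hairpin B or replicate 1 of the GFP hairpin. The call with hairpin A in PE was lost without any of replicates 1 to 3 of hairpin A or replicates 1, 2 or 4 of the GFP hairpin, and without the 3 libraries that stood apart.

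SARS1 was the cytosolic member that rose in all 4 comparisons, and AARS1 the member that fell in all 4. SARS1, the cytosolic seryl enzyme, had 196, 196, 194 and 189 CPM with hairpin B, 188, 195, 174 and 181 CPM with hairpin A and 159.5, 166, 148 and 142 CPM with the GFP hairpin in PM. Libraries of the GFP hairpin were the lowest in PM and also in PE. The log2 changes were 0.33 and 0.26 with hairpins B and A in PM, and 0.32 (SE 0.061, adjusted p = 0.000121) and 0.24 in PE. AARS1, the cytosolic alanyl enzyme (chr16:70252298-70289506, minus strand), had 192, 174, 164 and 169.7 CPM with hairpin B, 211, 215, 212 and 188 CPM with hairpin A and 283, 280.1, 256 and 209.8 CPM with the GFP hairpin in PM. In PE it had 165, 154, 149.9 and 155 CPM with hairpin B, 178, 169, 157 and 166 CPM with hairpin A and 191, 225, 204 and 197 CPM with the GFP hairpin. In PM replicate 4 of the GFP hairpin, the lowest of its group, overlapped the hairpin A libraries, and in the other 3 comparisons the groups were apart. AARS1 changed by −0.56 (SE 0.074, adjusted p = 3.86e-07) and −0.32 (SE 0.074, adjusted p = 0.0012) with hairpins B and A in PM. In PE it changed by −0.39 (SE 0.075, adjusted p = 0.000107) and −0.29 (SE 0.075, adjusted p = 0.0047).

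**Figure D4:**
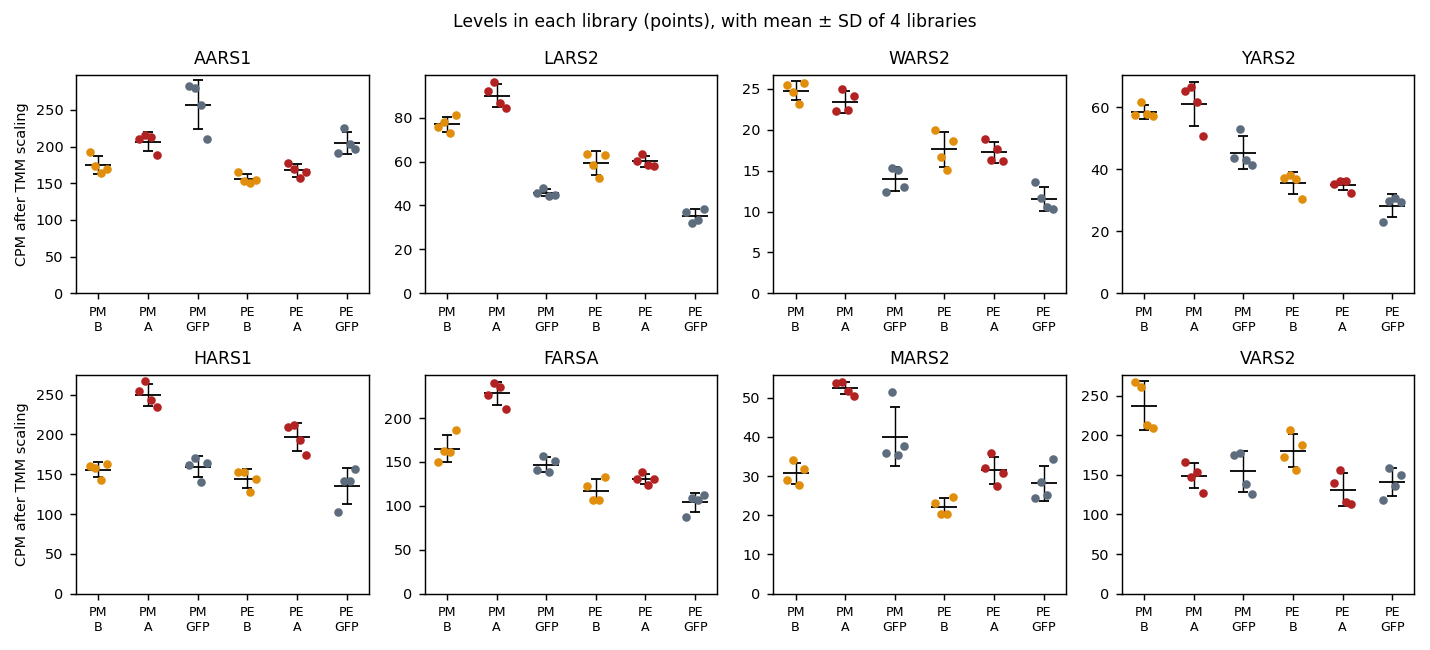
CPM after TMM scaling in each library (points) for 8 members, with the mean and SD of 4 libraries, by line and hairpin; each vertical axis starts at 0. The GFP libraries of each line lie below both CHD1 hairpins for LARS2 and WARS2, whereas HARS1 is high with hairpin A and VARS2 is high with hairpin B.

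Several cytosolic genes rose with hairpin A in both lines without a call under hairpin B. HARS1, the cytosolic histidyl enzyme (chr5:140673905-140691370, minus strand), had 160.0, 158, 142 and 162 CPM with hairpin B, 254, 267, 244 and 234 CPM with hairpin A and 162, 171, 141 and 164 CPM with the GFP hairpin in PM. In PE HARS1 had 152, 153, 128 and 144 CPM with hairpin B, 209, 212, 192 and 174 CPM with hairpin A and 103, 141, 141 and 156 CPM with the GFP hairpin. The hairpin A libraries were the highest in both lines, and those of hairpin B overlapped the GFP libraries. With hairpin A the log2 change was 0.65 (SE 0.087, adjusted p = 6.83e-07) in PM and 0.52 (SE 0.088, adjusted p = 3.75e-05) in PE. With hairpin B it was −0.03 in PM and 0.08 in PE. HARS2, whose gene lies head to head with HARS1 and overlaps 5.56% of its exon length, was not called, with changes between 0.00 and 0.14.

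FARSA, the catalytic alpha subunit of the cytosolic phenylalanyl enzyme, had 150.4, 162, 161 and 187 CPM with hairpin B, 226, 240.4, 236 and 210.0 CPM with hairpin A and 141, 157, 138 and 151 CPM with the GFP hairpin in PM. The hairpin A libraries were apart from the rest, and the hairpin B libraries overlapped the GFP libraries. Its change was 0.64 (SE 0.077, adjusted p = 5.5e-08) with hairpin A in PM and 0.32 in PE. FARSB, the beta subunit, changed by 0.25 with hairpin A in PM, a call lost without replicate 2 or 3 of hairpin A or replicate 1 or 3 of the GFP hairpin, and gave 0.01 in PE, which was not called. YARS1, the cytosolic tyrosyl enzyme, had 199.6, 194, 179 and 182 CPM with hairpin A and 141, 156, 138 and 146 CPM with the GFP hairpin in PE. These groups did not overlap (log2 change 0.37, SE 0.058, adjusted p = 8.27e-06), and in PM the change was 0.46. NARS1, the cytosolic asparaginyl enzyme, and CARS1, the cytosolic cysteinyl enzyme, rose with hairpin A by 0.32 and 0.21 in PM and by 0.23 and 0.37 in PE. The CARS1 call in PM was lost without replicate 1 of hairpin A or replicate 1 or 4 of the GFP hairpin. TARS3 rose in PM under each hairpin, by 0.36 with hairpin B and 0.55 with hairpin A, and the call with hairpin B was lost without replicate 1 or 4 of either group.

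GARS1 and RARS2 fell in PM under each hairpin. GARS1 had 1249, 1333, 1214 and 1485 CPM with hairpin B and 1048, 1073, 1054 and 1261 CPM with hairpin A in PM, and all 8 of these libraries lay below the 4 GFP libraries given above. Its log2 change was −0.28 (SE 0.062, adjusted p = 0.00048) with hairpin B and −0.54 (SE 0.062, adjusted p = 2.28e-08) with hairpin A. In PE it had 188, 199.8, 186 and 213 CPM with hairpin B and 217, 220.4, 212 and 216 CPM with hairpin A, with changes of −0.04 and 0.10 that were not called. RARS2, the mitochondrial arginyl enzyme, had 31.8, 29.1, 28.7 and 32.9 CPM with hairpin B, 29.9, 29.4, 28.5 and 33.3 CPM with hairpin A and 40.5, 37.3, 34.8 and 34.7 CPM with the GFP hairpin in PM. The groups were apart by a narrow margin, and the changes were −0.26 (SE 0.083, adjusted p = 0.0146) and −0.28 (SE 0.083, adjusted p = 0.00923). Either call was lost without replicate 1 of the GFP hairpin, and that with hairpin B also without its replicate 2 or 3.

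MARS2 and VARS2 moved differently with hairpin B than with hairpin A. MARS2, the mitochondrial methionyl enzyme (chr2:197705369-197708395, plus strand), had 29.1, 33.98, 27.8 and 31.8 CPM with hairpin B, 53.7, 53.9, 51.8 and 50.4 CPM with hairpin A and 35.9, 51.3, 35.4 and 37.6 CPM with the GFP hairpin in PM. In PE MARS2 had 23.0, 20.2, 20.3 and 24.7 CPM with hairpin B, 32.0, 35.8, 27.4 and 30.8 CPM with hairpin A and 24.5, 28.5, 25.1 and 34.4 CPM with the GFP hairpin. Replicate 2 of the GFP hairpin in PM was far above the other 3 and overlapped the hairpin A libraries. Hairpin B changed MARS2 by −0.39 (SE 0.11, adjusted p = 0.00622) in PM and −0.36 (SE 0.11, adjusted p = 0.014) in PE, and hairpin A by 0.39 in PM. Without replicate 2 of the GFP hairpin the fall in PM was −0.24 and no longer called, and without replicate 4 of the GFP hairpin the fall in PE was −0.24 and no longer called.

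VARS2, the mitochondrial valyl enzyme (chr6:30914238-30926459, plus strand), had 268, 261, 213 and 209 CPM with hairpin B, 166, 148, 154 and 128 CPM with hairpin A and 174, 178, 138 and 126 CPM with the GFP hairpin in PM. In PE VARS2 had 172, 206, 156 and 187 CPM with hairpin B, 140.2, 156, 115 and 114 CPM with hairpin A and 118, 159, 136 and 150.2 CPM with the GFP hairpin. In PM the hairpin B libraries were above all others, and in PE they overlapped them. The change with hairpin B was 0.62 (SE 0.13, adjusted p = 0.001) in PM and 0.35 (adjusted p = 0.0573) in PE. GTF2H4, a subunit of the transcription factor TFIIH whose gene shares 22.0% of the VARS2 exon length on the same strand, was not called and gave −0.21 with hairpin B in PM. EARS2 also fell with hairpin B in PM, at 32.7, 37.8, 34.1 and 30.9 CPM against the 4 GFP libraries given above, all of which were higher. That change of −0.26 (SE 0.10, adjusted p = 0.0492) was called by a narrow margin and was lost in 17 of the 24 fits that left out 1 library. Other calls with hairpin B in PM were rises of QARS1, the cytosolic glutaminyl enzyme, by 0.17 and of TARS2, the mitochondrial threonyl enzyme, by 0.27.

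MARS1, the cytosolic methionyl enzyme, fell with hairpin B in PE and rose with hairpin A in PM. In PE it had 168, 157, 133 and 174 CPM with hairpin B and 175, 195, 178 and 182 CPM with the GFP hairpin. The groups did not overlap, but replicate 4 of hairpin B lay next to the GFP libraries (log2 change −0.21, SE 0.079, adjusted p = 0.0443). That call was lost without replicate 2 or 3 of hairpin B or any replicate of the GFP hairpin.

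Set directly against each other, the hairpins differed at many members although CHD1 was not called different between them, at 29.4 ± 5.40 CPM with hairpin B and 31.03 ± 2.76 CPM with hairpin A in PM (adjusted p = 0.648). In PM, 2 members were higher and 19 lower with hairpin B than with hairpin A, 5.26% and 50.0% of the members, where 12.7% and 13.5% of all genes tested were called higher and lower. In PE, 1 was higher and 9 were lower, 2.63% and 23.7% of the members, where 7.48% and 9.09% of all genes were called. These contrasts share no libraries between the lines. Within a line they use the same hairpin libraries as the comparisons with GFP above, so they are not separate from those. The median change of the members was −0.20 in PM and −0.10 in PE, against 0.03 and 0.01 for all genes tested. Lower with hairpin B were 13 of 20 cytosolic and 5 of 16 mitochondrial genes in PM, and 7 and 2 in PE. The 9 lower members in PE became 5 without replicate 1 of hairpin A or replicate 3 of hairpin B. The 19 lower members in PM were 14 to 20 when 1 library was left out. Calls of 8 members in PM were lost in 1 or more alternatives: AARS1, EPRS1, IARS1, LARS1, TARS1, VARS1, LARS2 and PARS2.

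Among members lower with hairpin B than with hairpin A, the largest differences were at MARS2, HARS1 and FARSA in PM and at MARS2, HARS1 and CARS1 in PE. For MARS2 the log2 change of hairpin B over hairpin A was −0.78 (SE 0.11, adjusted p = 1.19e-06) in PM and −0.51 (SE 0.11, adjusted p = 0.000994) in PE. For HARS1 it was −0.68 (SE 0.087, adjusted p = 3.65e-07) in PM and −0.45 (SE 0.087, adjusted p = 0.000332) in PE. For these 2 genes the libraries of the hairpins did not overlap in either line. FARSA gave −0.47 (SE 0.076, adjusted p = 1.52e-05) in PM. CARS1 in PE had 112, 111, 118 and 137 CPM with hairpin B and 157, 151, 165 and 175 CPM with hairpin A. Every hairpin B library was the lower (log2 change −0.44, SE 0.072, adjusted p = 2.91e-05). VARS2 went the other way, by 0.67 (SE 0.13, adjusted p = 0.000549) in PM and 0.46 (SE 0.13, adjusted p = 0.02) in PE, the PE call being lost without replicate 3 or 4 of hairpin A or replicate 2 of hairpin B. In PM the valyl pair was the compartment pair of the 13 with opposite calls, with VARS1 at −0.28 (SE 0.081, adjusted p = 0.0108), a call lost without replicate 2 of hairpin A or replicate 4 of hairpin B.

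GARS1 was higher with hairpin B than with hairpin A in PM, by 0.25 (SE 0.062, adjusted p = 0.00209), with replicate 4 of hairpin A overlapping the hairpin B libraries. MYC differed in the direction opposite to GARS1 in PM, at 392 ± 12.3 CPM with hairpin B and 564 ± 28.2 CPM with hairpin A (log2 change −0.52, adjusted p = 3.75e-08). In PE it gave 274 ± 24.0 CPM with hairpin B and 258 ± 8.30 CPM with hairpin A, which was not called. Against the GFP hairpin in PM, MYC changed by −0.40 with hairpin B (adjusted p = 3.57e-06 by edgeR's quasi-likelihood test). With hairpin A it gave 0.12 by the same test, which was not called (adjusted p = 0.142). The part of MYC in the differences at the synthetases was not tested.

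**Figure D5:**
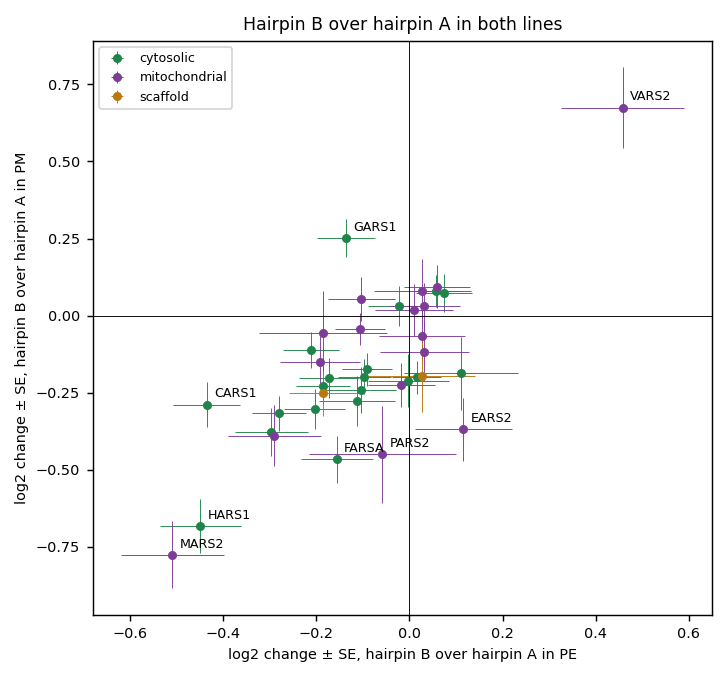
Log2 change of hairpin B over hairpin A in PE (horizontal axis) and in PM (vertical axis) for each member, with SEs, coloured by class. MARS2 at −0.51 and −0.78 and HARS1 at −0.45 and −0.68 lie lowest, and VARS2 at 0.46 and 0.67 lies highest on both axes.

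The effect of a hairpin was called different between the lines for few members. For hairpin A, PM minus PE, 1 member was higher and 1 lower, where 2.76% and 3.9% of all genes tested were called, and with DESeq2 size factors or library sizes alone the counts were 3 and 1. GARS1 gave −0.63 (SE 0.088, adjusted p = 1.11e-05). EPRS1, the fused glutamyl and prolyl enzyme, had 770.4, 755, 774 and 786 CPM with hairpin A and 666, 689, 661 and 619.9 CPM with the GFP hairpin in PM. In PE it had 538, 515, 504 and 512 CPM with hairpin A and 531, 551, 511 and 527 CPM with the GFP hairpin. The groups were apart in PM and overlapped in PE, and the difference of the effects was 0.26 (SE 0.076, adjusted p = 0.0286). The EPRS1 call was lost when replicate 2 of the GFP hairpin in PE was left out, with no filter on low counts, and without the 3 libraries that stood apart. For hairpin B no member was called by edgeR, 0 of 38, where 1.47% and 0.98% of all genes were called higher and lower. At an unadjusted p under 0.05, 2 members were higher and 2 lower, beside 1271 higher and 1316 lower of the 20820 genes tested. DESeq2 called 1 member higher, beside 484 higher and 279 lower of 20017 genes.

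The multi-synthetase complex was represented by 9 members, EPRS1, IARS1, LARS1, MARS1, QARS1, RARS1, KARS1, AIMP1 and AIMP2. In PM against PE with the GFP hairpin 7 of the 9 were called, each as higher, beside 14.1% of all genes. Of these, the calls of IARS1, RARS1 and AIMP1 were lost in the fits named above. With hairpin A in PM 5 of the 9 were called, each as higher, beside 13.4% of all genes: EPRS1 by 0.23, IARS1 and KARS1 by 0.27 each, LARS1 by 0.24 and MARS1 by 0.28. Under hairpin B in PM QARS1 alone was called, and in PE MARS1 alone was called with hairpin B and RARS1 alone with hairpin A, the RARS1 call being lost without replicate 1 or 2 of hairpin A. With hairpin B against hairpin A, 6 of the 9 were lower in PM and 3 in PE, beside 13.5% and 9.09% of all genes. In PM the calls of EPRS1, IARS1 and LARS1 were lost without the 3 libraries that stood apart, and that of EPRS1 also with library sizes alone, with no filter on low counts or without replicate 3 of hairpin B. In PE no call held in all fits: KARS1 and MARS1 were lost without replicate 3 of hairpin B, KARS1 and RARS1 without replicate 1 of hairpin A, and KARS1 also with no filter or without replicate 2 of either hairpin. AIMP1 and AIMP2 were not called in any comparison of a CHD1 hairpin with GFP, and 28.9% of the AIMP2 exon length lies opposite EIF2AK1, so its counts are uncertain where strand was not kept.

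The 11 members described as ATF4 targets, AARS1, CARS1, EPRS1, GARS1, IARS1, MARS1, NARS1, SARS1, TARS1, WARS1 and YARS1, were called in both directions. With hairpin B 1 rose and 2 fell in PM, where 13.6% and 14.4% of all genes tested did. In PE 1 rose and 2 fell with this hairpin, where 13.6% and 13.2% of all genes did. With hairpin A 7 rose and 2 fell in PM, beside 13.4% and 14.3% of all genes. In PE 4 rose and 1 fell with hairpin A, beside 10.9% and 9.33%. In PM against PE with the GFP hairpin 9 of the 11 were called, each as higher, beside 14.1% of all genes. Of the 6 that hold the response element core, AARS1 fell with hairpin A in PM by 0.32, CARS1, IARS1, MARS1 and NARS1 rose by 0.21 to 0.32, and TARS1 gave 0.14 and was not called. With hairpin A in PE, AARS1 fell, CARS1 and NARS1 rose, and the rest were not called. No rise among these 6 was called with hairpin B: AARS1 alone was called in PM, and AARS1 and MARS1 fell in PE.

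A list of 24 other ATF4 target genes had more called falls than called rises in each comparison of a CHD1 hairpin with GFP. With hairpin B 2 rose and 8 fell in PM, and 4 rose and 7 fell in PE; with hairpin A 1 rose and 10 fell in PM, and 1 rose and 7 fell in PE. Of all genes tested, 13.6% rose and 14.4% fell with hairpin B in PM, and 13.6% and 13.2% in PE; with hairpin A the shares were 13.4% and 14.3% in PM and 10.9% and 9.33% in PE. The counts of rises were unstable over the alternatives, at 0 to 2 with hairpin A in either line and 1 to 4 with hairpin B in PM, and the falls with hairpin A in PE were 11 with library sizes alone. The 4 rises with hairpin B in PE became 1 without the 3 libraries that stood apart, and 2 without replicate 1 or 3 of hairpin B or replicate 1, 2 or 4 of the GFP hairpin. Among the called genes, the largest changes in PM were at CHAC1 (−1.02), SESN2 (0.67), SLC7A5 (−0.66) and TRIB3 (−0.54) with hairpin B. With hairpin A they were at ATF3 (−1.08), CHAC1 (−1.04), CEBPB (−0.92) and SLC7A5 (−0.85). SLC7A5 is the light chain of a transporter that imports large neutral amino acids, and CHAC1 degrades glutathione. In PM against PE with the GFP hairpin 12 of the 24 were called, each as higher, beside 14.1% of all genes. They were led by ASNS, asparagine synthetase, at 1.60 (SE 0.57) and SLC7A5 at 1.24 (SE 0.12), while DESeq2 called 11 higher and 3 lower.

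Of 25 partner genes of tRNA charging and delivery, 24 were tested. With hairpin B 7 rose and 4 fell in PM, and 5 rose and 3 fell in PE; with hairpin A 12 rose and 3 fell in PM, and 6 rose and 3 fell in PE, beside the same shares of all genes. The 5 rises with hairpin B in PE became 3 with no filter or without replicate 3 of the GFP hairpin. EEF1G, a subunit of the exchange factor for elongation factor 1, rose by 0.63 and 0.54 in PM and by 0.77 and 0.69 in PE. GATC, a subunit of the mitochondrial amidotransferase that makes glutaminyl-tRNA, rose by 0.38 and 0.57 in PM and by 0.39 in PE under each hairpin. EEF1A1, which delivers charged tRNA to the ribosome, fell in PM by 0.40 with hairpin B and 0.42 with hairpin A, and gave −0.13 and −0.03 in PE, which were not called. The difference between the lines was called for hairpin A (−0.38, adjusted p = 0.00255) and not for hairpin B (−0.27, adjusted p = 0.0685). In PM against PE with the GFP hairpin 13 partner genes were called, each as higher, beside 14.1% of all genes, and 8 by DESeq2. TUFM, a mitochondrial elongation factor, had the largest change among those called, 0.52 (SE 0.062). Without replicate 1 or 2 of the GFP hairpin in PM the count was 7 or 5.

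The members not called in any comparison of a CHD1 hairpin with GFP were TARS1, VARS1, WARS1, AARS2, CARS2, FARS2, HARS2, IARS2, NARS2, PARS2, AIMP1 and AIMP2. FARS2, the mitochondrial phenylalanyl enzyme, gave the largest values among them, 0.27 with hairpin B and 0.32 with hairpin A in PM (SE 0.14 each), at a low level of 3.38 ± 0.54 CPM per kb with the GFP hairpin. IARS2, the most abundant mitochondrial member, stayed between −0.08 and 0.03. A change that missed the threshold does not show that these genes were unaffected.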

How the data were processed

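The authors deposited 1 table of raw counts per gene for the 24 libraries. Per the submitters' processing notes, their tools included FastQC, Trim Galore 0.4.0, HISAT2 2.2.1 and featureCounts, with GRCh38; for the annotation release and the strand setting of the counting, no source used here gives a value. Per the labels the library kit was directional. As the strand setting of the counting is not known, reads of overlapping genes on opposite strands may still be shared. Where genes overlap on the same strand, as VARS2 and GTF2H4 do, no strand setting separates their reads.

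The 20820 genes kept by filterByExpr were fitted in edgeR 4.0.16 (R 4.3.3, limma 3.58.1) with TMM scaling, 1 mean for each of 6 groups and a robust quasi-likelihood test, two-sided, over 9 contrasts. P-values were adjusted by Benjamini-Hochberg over all genes tested, with a threshold of 0.05. SE is the absolute log2 change over the root of the F statistic. Levels per kilobase use the union exon length of GENCODE 29. Alternatives were library sizes alone, DESeq2 size factors, DESeq2 1.42.0, no filter, a replicate block, 3 libraries left out, and each library left out. The script was tested on simulated data.

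Full statistics went to the 4 largest rises and falls past the threshold in each contrast with GFP or between lines, and the 3 largest each way between hairpins. Members and lists were chosen with earlier results of these data known. Some genes of the marker and partner lists are not reported here by name.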

Additional observations from a re-analysis of the deposited data

Results flagged for a closer look

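In 12 of 228 groups of 4 libraries, 1 library lay far from the other 3. Chance alone would give about 1 in 20 groups. The 228 groups are drawn from the same 24 libraries, so the flags are not independent of one another. Replicate 4 of hairpin A in PM had 187.9 CPM of AARS1, against 211 to 215 CPM in the others, and 1261 CPM of GARS1, against 1048 to 1073 CPM. CARS2, the mitochondrial cysteinyl enzyme, stood apart in each PM group. It had 136 CPM in replicate 4 of hairpin B (others 108 to 112 CPM), 120.3 CPM in replicate 2 of hairpin A (others 112 to 113 CPM) and 130.8 CPM in replicate 4 of the GFP hairpin (others 108 to 109.8 CPM). Replicate 2 of the GFP hairpin in PM had 51.34 CPM of MARS2 (others 35.4 to 37.6 CPM), and replicate 4 had 6.909 CPM of PARS2, the mitochondrial prolyl enzyme (others 8.91 to 9.22 CPM).

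In PE, LARS1 had 381.1 CPM in replicate 4 of hairpin B (others 339 to 346 CPM), and FARSB had 74.61 CPM in replicate 3 of hairpin A (others 85.1 to 86.8 CPM). Replicate 1 of the GFP hairpin, the least deeply sequenced library, had 209.1 CPM of GARS1 (others 199 to 201 CPM) and 22.91 CPM of YARS2 (others 29.6 to 30.8 CPM). Replicate 2 of the GFP hairpin had 15.07 CPM of FARS2 (others 13.2 to 13.4 CPM).

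The effect of hairpin A differed between the lines by the test of the difference itself for 2 members. On the log2 scale, PM minus PE, it was −0.6324 for GARS1 and 0.2624 for EPRS1, with adjusted p = 1.11e-05 and 0.0286 by edgeR's quasi-likelihood test. The EPRS1 call was lost in 3 alternatives: with no filter, without the 3 libraries that stood apart, and when the PE library of GFP replicate 2 was left out.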

How the results depend on the processing

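Of 110 calls of members over the 9 contrasts, 78 were kept in all alternatives, 20 were lost in 1 or more settings, 12 were lost only when 1 library was left out, and none reversed (0). DESeq2 size factors lost 5 calls, library sizes alone 13, DESeq2 3, no filter 12, and leaving out 3 libraries 7. The hairpin A effect, PM minus PE, was higher for 3 members with DESeq2 size factors, library sizes alone, DESeq2 and the replicate block, against 1. The hairpin B effect, PM minus PE, was higher for 1 member with library sizes alone and DESeq2, and lower for 1 with the replicate block. With no filter, 3 members fell with hairpin B in PM, against 5. The replicate block lost no call of a member (0 of 110). Over all genes, the block raised the calls with hairpin A in PE from 2265 higher and 1943 lower to 2741 and 2272. For the hairpin A effect, PM minus PE, it raised them from 575 higher and 811 lower to 854 and 1330. Same-numbered libraries were correlated between −0.037 and 0.118, with medians by number of 0.015 to 0.060. The labels do not say whether the numbers mark a shared batch, and the main fit did not pair them. The column names number the libraries in blocks that follow the replicate number. In PM, replicate 4 was the lowest of its group for VARS1 under each hairpin (1288, 1461 and 1339 CPM with hairpins B, A and GFP). It was the highest of its group for GARS1 under each hairpin. In PE neither held under every hairpin. The part of a shared batch in these values was not tested.

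Leaving out 1 library at a time gave 3 to 5 falls with hairpin B in PM, 1 to 4 falls with hairpin B in PE, 0 to 3 members with a higher hairpin A effect in PM, and 0 to 1 with a lower hairpin B effect. Hairpin B against hairpin A in PE gave 0 to 1 higher and 5 to 10 lower members. PM against PE gave 21 to 25 higher. The causes were not tested. Replicate 1 of the GFP hairpin in PE, at 4142862 counts, limits the precision of low members such as FARS2 and TARS3.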
